A study of Mus musculus with 2 samples.

Results

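The subunits of the receptors through which glutamate, GABA and glycine open ion channels were examined for open chromatin in embryonic mouse midbrain. They were chosen by gene symbol: Gria, Grik, Grid, Grin, Gabra, Gabrb, Gabrg, Gabrr, Gabrd, Gabre, Gabrp, Gabrq, Glra and Glrb genes that code for protein. The rule gave 42 of 21911 named protein-coding genes, of which 18 encode glutamate receptor subunits, 19 GABA-A receptor subunits and 5 glycine receptor subunits. The measurement was DNase-seq, which sequences the ends left by DNase I, an enzyme that cuts DNA mainly where it is not packed by nucleosomes. Midbrain was taken from healthy B6NCrl embryos at embryonic day 14.5, with males and females pooled and no allele or treatment named in the labels. The samples formed 1 group of 2 biological replicates, entered as separate biosamples of a single donor record, and their spread may be technical in part. With 1 group, no test over samples was possible, and the values below are descriptions.

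Glutamate receptors of the AMPA, kainate and NMDA classes are excitatory channels built from combinations of subunits, and the delta subunits act mainly as synaptic organisers. GABA-A and glycine receptors are chloride channels that inhibit mature neurons and often depolarise immature ones. Many subunits are exchanged as the brain matures, and Grin2a takes over from Grin2b and Glra1 from Glra2. Some of the genes carry an RE1, a bipartite DNA element bound by REST, which represses neuronal genes in progenitors and outside the nervous system.

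A promoter was called open when a peak found in both replicates (overlap of at least 1 bp) came within 1000 bp of an annotated start of the gene. By this measure 36 of 42 receptor subunit genes (85.7%) were open, beside 69.0% of all genes. The 18 glutamate receptor genes were all open. The 6 genes without a shared peak were Gabra6, Gabrd, Gabrp, Gabrr2, Gabrr3 and Glra4. Gabra6 is best known from cerebellar granule cells, Gabrp from epithelia and the Gabrr genes from the retina. In bulk tissue, chromatin that is open in fewer cells and chromatin that is less open in each cell cannot be told apart.

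The sequences of 3 kinds follow, read from GRCm38.p6 (RefSeq). First are RE1 matches within 1000 bp of a start, shown because 7 of 42 receptor subunit genes (16.7%) had one, beside 283 of 21911 genes in all (1.29%). A match was TTCAGCACC, a gap of 2 bp and GGACAGCGC on either strand, with at most 3 mismatches over 18 letters. Each is written 5′ to 3′ on the strand of the match, and capitals mark the letters compared.
Gria2: TTTAGCACCgcGGACAGCGC
Grin1: TTCAGCACCtcGGACAGCAC
Gabrd: TTCAGCACCgaGGACGGCGG
Glra1: TTCAGCACCacGGAGAGCGT
Glra3: TTCAGCACCtcAGACAGCTC

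The Glra1 match at chr11:55607937-55607956 (plus strand, exon), with 2 mismatches, lay under a shared peak with values of 37 in replicate 1 and 116 in replicate 2.

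The matches of Glra3, Gabrd, Gria2 and Grin1 were not under a shared peak. The Glra3 match at chr8:55940761-55940780 (minus strand, exon) was covered by a replicate 1 peak of 40 and ended 15 bp from a shared peak of 40 and 101. The Gabrd match at chr4:155397680-155397699 (plus strand, exon) was covered by a replicate 1 peak of 14. The match of Gria2 at chr3:80802989-80803008 (plus strand, intergenic) had no peak over it and lay 23 bp from the strongest promoter peak of the gene, 96 and 140. For Grin1, the match at chr2:25319015-25319034 (minus strand, exon) had no peak over it and lay 69 bp from a shared peak of 32 and 92. Among all genes with a match, 97 of 283 had it under a shared peak. Both the Gria2 and Grin1 elements therefore stood beside, not under, the called peaks, which are 150 bp wide. A match is a description of the letters and not evidence of binding.

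The second set holds the 3 receptor subunit genes whose strongest shared promoter peak contained GCGCATGC, the core recognised by NRF1, a transcription factor of nuclear genes for mitochondria and of several synaptic genes. It was found in 3 of 36 peaks (8.33%), beside 3.87% of the strongest peaks of all open genes. The sequences are on the gene's strand, and capitals mark the NRF1 letters on either strand, which overlap in matches on both strands at Gabrb1 and Gabrb2.
Gria3: gcagagaccagGCATGCGCagcatcttagg
Gabrb1: gagtaccctctGCGCATGCGCaggtccatt
Gabrb2: tggtacgccgtGCGCATGCGCtccacatta

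These windows are chrX:41400456-41400485 for Gria3, chr5:71699905-71699934 for Gabrb1 and chr11:42421244-42421273 for Gabrb2, all on the plus strand. The Gabrb1 letters were centred 12 bp and the Gabrb2 letters 20 bp upstream of an annotated start, and the Gria3 letters 383 bp upstream.

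The third set shows the strongest shared promoter peaks of Grin2b, Glra2 and Glra1 in lower case on the gene's strand. They belong to pairs of subunits exchanged during development, described further on. Exonic bases were left out, which shortened the Glra2 stretch.
Grin2b: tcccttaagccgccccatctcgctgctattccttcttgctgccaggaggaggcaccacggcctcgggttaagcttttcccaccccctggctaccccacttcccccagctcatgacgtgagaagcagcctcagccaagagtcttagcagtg
Glra2: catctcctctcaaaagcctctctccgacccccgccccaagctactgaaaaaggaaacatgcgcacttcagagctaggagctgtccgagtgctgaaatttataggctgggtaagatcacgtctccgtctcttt
Glra1: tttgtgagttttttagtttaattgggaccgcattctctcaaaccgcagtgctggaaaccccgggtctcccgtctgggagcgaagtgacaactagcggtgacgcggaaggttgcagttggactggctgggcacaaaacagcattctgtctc

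The Grin2b peak spanned chr6:136173596-136173745 (minus strand), 159 bp upstream of the gene's 5′ end. The Glra2 stretch spanned chrX:165327394-165327525 (minus strand), and its peak was the 1 of 36 that held a TATAAA on either strand. In the stretch shown, the match lies on the opposite strand and so appears as its reverse complement. The Glra1 peak spanned chr11:55607196-55607345 (minus strand), 927 bp downstream of the 5′ end.

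Values of the peaks are the authors' own, whole numbers of at most 150 on a scale that is not common to both replicates. Replicate 1 held 710176 peaks with a median value of 6, and replicate 2 held 267958 peaks with a median of 51. Values were therefore ranked within each replicate as percentiles of its peaks, and the read depth is unknown. Shared peaks numbered 171429, or 64.0% of the replicate 2 peaks. The tissue label was checked on marker promoters, with the strongest promoter peak taken in each replicate separately. Otx2, En1 and En2 of midbrain, Tubb3, Elavl3 and Stmn2 of neurons and Sox2, Nes and Hes5 of progenitors all had shared peaks. Their strongest peaks had 75 to 123 in replicate 1 and 133 to 147 in replicate 2. The 4 globin genes of blood had no shared peak, whereas Cldn5 and Kdr of endothelium did. The strongest peaks of Cldn5 and Kdr had 23 and 38 in replicate 1 and 65 and 114 in replicate 2. Of the microglial and meningeal markers, C1qa (18 and 49) and Col1a1 (83 and 129) were open, and Cx3cr1 and Col3a1 had no shared peak. The part of these other cells in the peaks of receptor genes was not tested.

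Taken one replicate at a time, 38 receptor subunit genes had a promoter peak in replicate 1, beside 75.8% of all genes, and 38 in replicate 2, beside 72.5%. Hotspots, the authors' wider accessible regions, were present in both replicates at 37 promoters, beside 70.1% of all genes. The strongest shared promoter peaks had median values of 56 in replicate 1 and 124 in replicate 2 over the 36 open receptor genes, against 91 and 137 over all open genes. Their median mean percentile was 95.5 for the receptor genes and 97.9 for all open genes. Receptor promoters were thus called open more often than those of all genes, with somewhat lower peaks. At least 2 shared promoter peaks were found at 29 receptor genes (69.0%) and at 47.8% of all genes. Over the 36 open receptor genes the replicates ranked the strongest peaks alike, with a Spearman coefficient of 0.92. These points share their libraries, and the coefficient is a description.

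**Figure D1:**
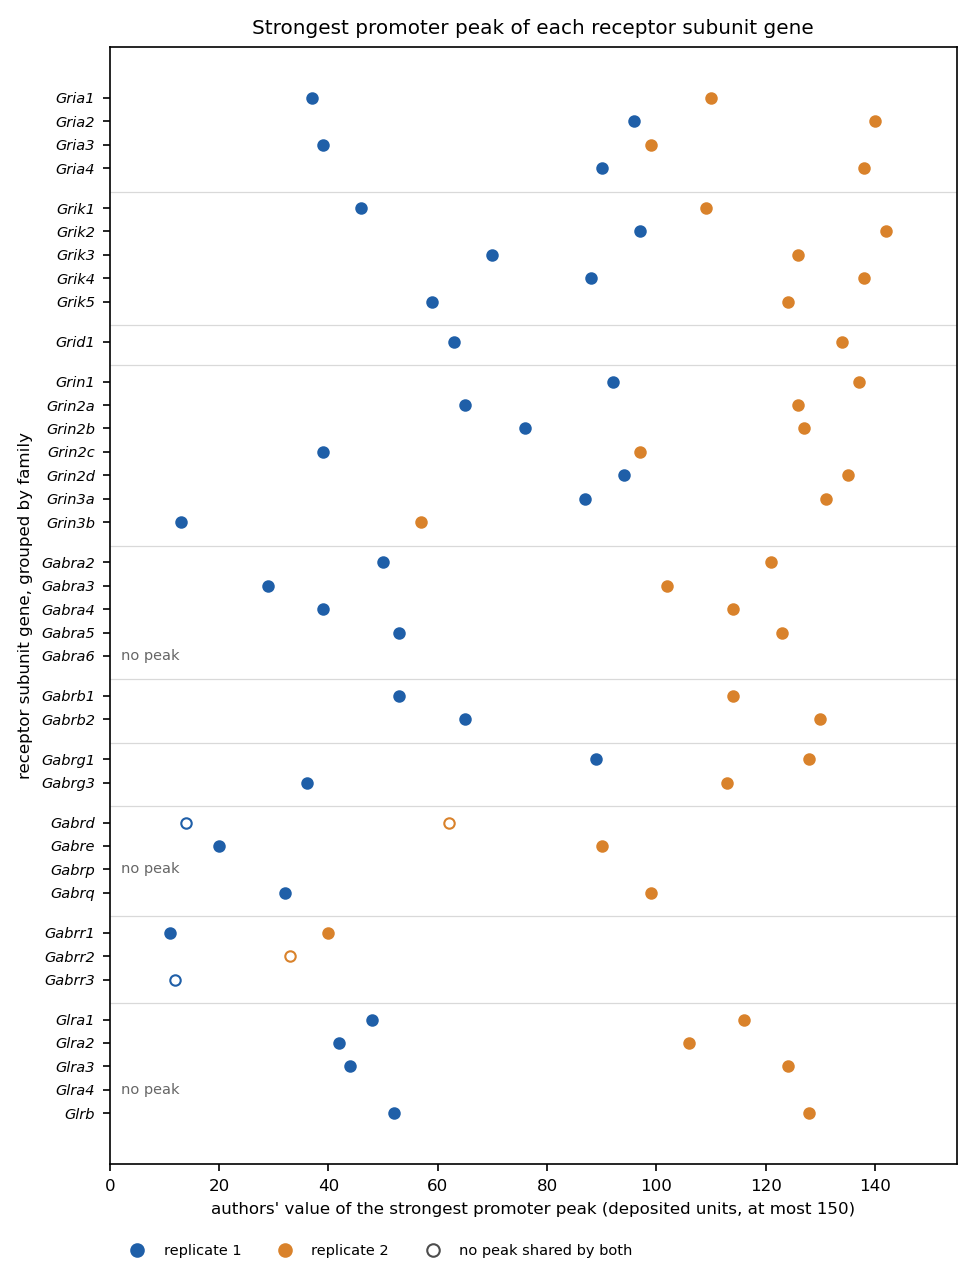
Each row is 1 of 38 receptor subunit genes and each point the authors' value of its strongest promoter peak in replicate 1 or replicate 2. Open symbols mark genes with peaks but no peak shared by both. Gabra6, Gabrp and Glra4 had no peak in either replicate, and among open genes Gabrr1 and Grin3b had the lowest values in both.

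Among AMPA receptor subunits, which carry most fast excitation, the strongest shared promoter peak of Gria2 had values of 96 and 140 in replicates 1 and 2 (chr3:80802816-80802965). Gria2 encodes the edited subunit that keeps the channel nearly impermeable to calcium. Gria4 had 90 and 138 (chr9:4796136-4796285), Gria1 had 37 and 110 (chr11:57011736-57011885), and Gria3 had 31 and 99 (chrX:41400396-41400545). Gria2 and Gria4 stood above Gria1 and Gria3 in both replicates, with mean percentiles of 98.3 and 98.0 against 91.9 and 88.9. Gria2 and Gria4 were CpG-rich, and Gria1 and Gria3 were not.

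The kainate receptor genes were all open. Grik2, which encodes a subunit able to form channels alone, had the highest mean percentile of the 42 genes, 98.6, with values of 97 and 142 (chr10:49788716-49788865). Grik4, whose product needs a partner from Grik1, Grik2 or Grik3, had 88 and 138 (chr9:42944836-42944985). Grik3 had 70 and 126, Grik5 had 59 and 124, and Grik1 had 46 and 109. The Grik5 peak lay 804 bp upstream of the gene's 5′ end, farther out than most, while a weaker shared peak of 70 in replicate 2 lay 9 bp from an annotated start.

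Of the delta genes, Grid1, whose protein binds cerebellins at synapses, had 63 and 134 (chr14:34819676-34819825).

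The 7 NMDA receptor genes were all open. Grin1, the obligatory glycine-binding subunit, had 92 and 137 with the peak centred 3 bp from its 5′ end (chr2:25319116-25319265). Among the glutamate-binding subunits, Grin2d had 94 and 135, Grin2b had 75 and 127, Grin2a had 65 and 126, and Grin2c had 39 and 97. By the strongest shared peak, Grin2c was thus the lowest of these 4 in both replicates, and Grin2a was close below Grin2b. The Grin2d peak was centred 978 bp downstream of its nearest annotated start. The shared peak of Grin2d closest to a start, 441 bp upstream of that start, had 40 and 95, near the values of Grin2c. Of the glycine-binding Grin3 subunits, Grin3a had 87 and 131 (chr4:49845776-49845925), whereas Grin3b had 10 and 47 (chr10:79970796-79970945). Grin3b, known mainly from motor neurons, had the lowest mean percentile of the glutamate receptor genes, 58.1.

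The alpha subunits of GABA-A receptors form the GABA-binding site with beta subunits. Gabra5 had 53 and 123 (chr7:57509936-57510085), and Gabra2 had 50 and 121 (chr5:71095836-71095985). Gabra4 had 39 and 114 (chr5:71657916-71658065) and Gabra3 had 29 and 102 (chrX:72656336-72656485). The order of these 4 was the same in both replicates. Gabra6 had no promoter peak in either replicate, although a shared peak of 23 and 92 lay 6.0 kb inside the gene, over an exon (chr11:42314956-42315105).

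Beta subunits are needed in nearly all GABA-A receptors. Gabrb2 had 65 and 130 (chr11:42421196-42421345), and Gabrb1 had 53 and 113 (chr5:71699856-71700005). Of the gamma subunits, which give receptors their response to benzodiazepines, Gabrg1 had 89 and 128 (chr5:70843196-70843345), and Gabrg3 had 36 and 113 (chr7:57387096-57387245). Gabrg1 was thus the highest of these 4 in replicate 1, and Gabrb2 in replicate 2. The Gabrg1 peak lay 653 bp upstream of the gene's 5′ end, however. Its shared peak 96 bp upstream of an annotated start had 57 and 116, below Gabrb2 in both replicates.

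Gabrq, the theta subunit of some aminergic and hypothalamic neurons, had 32 and 99 (chrX:72825096-72825245), and Gabre, the epsilon subunit, had 20 and 90 (chrX:72274796-72274945). Gabrd, the delta subunit of extrasynaptic receptors, had replicate 1 peaks of 14 and 11 and a replicate 2 peak of 62 that overlapped neither of them, centred 441 bp downstream, 118 bp upstream and 101 bp downstream of the 5′ end in that order. Its promoter carried a hotspot in both replicates, so Gabrd counts as open by hotspots and not by shared peaks. Gabrp, the pi subunit of uterus and other epithelia, had no promoter peak in either replicate.

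Gabrr subunits form the GABA receptors typical of retinal bipolar cells. Gabrr1 had the lowest mean percentile of the 36 open genes, 53.1, with values of 11 and 40 (chr4:33132396-33132545) and percentiles of 75.4 in replicate 1 and 30.7 in replicate 2. Gabrr2 had a peak of 33 in replicate 2 and none in replicate 1, and Gabrr3 had a peak of 12 in replicate 1 and none in replicate 2.

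Among the glycine receptor genes, Glrb had 52 and 128 (chr3:80913536-80913685). Its product, the beta subunit, tethers the receptor to gephyrin. Glra1 had 48 and 115, Glra3 had 44 and 124 (chr8:55940276-55940425), and Glra2 had 42 and 106 (chrX:165327376-165327525). Glra4 had no promoter peak in either replicate.

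Subunits known from textbooks to be prominent late or early in brain development were set side by side. Of 5 late genes, Grin2a, Grin2c and Glra1 were open, and Gabra6 and Gabrd were not. The 6 early genes Grin2b, Grin2d, Gabra2, Gabra3, Gabra5 and Glra2 were all open, and 69.0% of all genes were. Over the open genes, the median value in replicate 1 was 48 for the late list and 51.5 for the early list, and in replicate 2 it was 115 for the late list and 122 for the early list. No test of the difference was possible. At least 2 shared promoter peaks were found at 2 of 5 late genes and 6 of 6 early genes, beside 47.8% of all genes. Of the 4 genes known mainly from retina or non-neural tissue (Gabrr1, Gabrr2, Gabrr3 and Gabrp), Gabrr1 alone was open.

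Within the pairs, Grin2a had 3 shared promoter peaks and Grin2b had 5. The strongest of Grin2a lay 1669 bp inside the gene (chr16:9993816-9993965), while its peak 10 bp from the 5′ end had 102 in replicate 2 and overlapped a replicate 1 peak of 38. Glra1 had 4 shared peaks, of which 3 reached 114 to 116 in replicate 2. Glra2 had shared peaks 57 and 717 bp upstream of its start, each with 42 in replicate 1 and with 106 and 105 in replicate 2. In both pairs, the late and the early gene each had a shared peak within 200 bp of an annotated start.

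**Figure D2:**
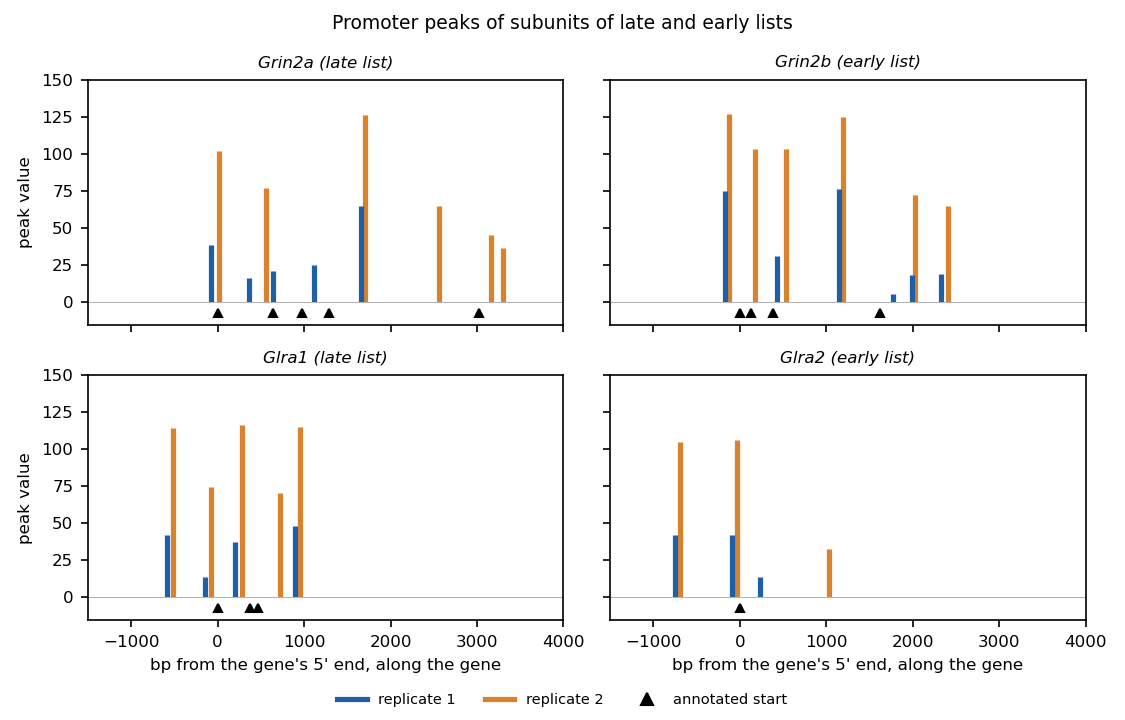
Bars give the authors' value of each peak called near the starts of 2 late genes (left) and 2 early genes (right), by distance from the gene's 5′ end in bp, with the replicates' bars set slightly apart and triangles at annotated starts. Both members of each pair had shared peaks, for example 126 at Grin2a and 127 at Grin2b in replicate 2.

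Many of these genes have several annotated starts. Of 170 annotated starts of the 42 genes, 120 (70.6%) had a shared peak within 1000 bp, beside 58.2% of the starts of all genes. At 16 genes each start had one, at 20 genes some did, and at 6 genes none did. When the gene's 5′ end alone was used, 33 genes were open, beside 64.4% of all genes, and Grin2c and Grin2d were among those lost. At Grin2d the 5′-most start (transcript Grin2d-202) had no shared peak. The start of Grin2d-203 had a shared peak of 40 and 95, centred 441 bp upstream. The start of Grin2d-201 had one of 94 and 135, centred 978 bp downstream, near the limit of the 1000 bp window. At Grin2c the start of Grin2c-202 had no shared peak and that of Grin2c-201, 1814 bp downstream, had 39 and 97. The strongest peak of Gabrb1 lay 41817 bp downstream of its 5′ end, at Gabrb1-201. Its 5′-most start (Gabrb1-202) lies head to head with Gabra4, and both genes counted the same peak of 39 and 114 there. For 36 of 36 open receptor genes the nearest coding start to the strongest peak was the gene's own. This outcome was favoured in advance, because the peak was picked within 1000 bp of the gene's own starts. The same share over all open genes was not counted. The strongest peak was centred within 200 bp of an annotated start at 27 of 36, beside 81.0% of all open genes.

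Promoter CpG content was compared because CpG-rich promoters are open in most tissues. A gene was called CpG-rich when the sequence around any start had GC of at least 50% and an observed over expected CpG of at least 0.6. This held for 23 of 42 receptor genes (54.8%), beside 56.5% of all genes. Of the CpG-rich receptor genes 22 of 23 were open, beside 97.7% of all CpG-rich genes, and the exception was Gabrd. Of the receptor genes that were not CpG-rich 14 of 19 were open, beside 31.7% of all such genes. At this cutoff, the higher share of open promoters among receptor genes was thus seen in the class without CpG-rich starts. It was not particular to receptor subunits. In the same class, 18 of 23 voltage-gated channel pore genes were open. So were 6 of 6 auxiliary and scaffold genes and 5 of 5 metabotropic receptors, lists described further on. Some of the open receptor genes of this class lay near the cutoff. Their highest observed over expected CpG was 0.61 at Gria3, 0.6 at Grin2b, 0.59 at Grin3b, 0.58 at Gabre and 0.57 at Gabrb2. Gria3 was not CpG-rich because none of its starts met the GC and the CpG condition together. Other CpG cutoffs were not examined. The 14 open receptor genes comprised 6 of 6 glutamate receptor genes of that class (Gria1, Gria3, Grik5, Grin2b, Grin2d and Grin3b), 6 of 10 GABA-A genes (among them Gabra3, Gabrb2, Gabrg1, Gabre and Gabrr1) and 2 of 3 glycine receptor genes (Glra2 and Glra3). Among them Grin2d had the highest mean percentile, 97.8, and its starts had an observed over expected CpG of at most 0.32. These numbers describe different DNA, as that peak was centred 978 bp from the nearest start, outside the sequence scored for CpG. The shared peak of Grin2d closest to a start had 40 and 95. The strongest peaks of Grik5, Gabrg1 and Gria3 also lay outside the scored sequence, centred 804, 653 and 383 bp from a start.

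**Figure D3:**
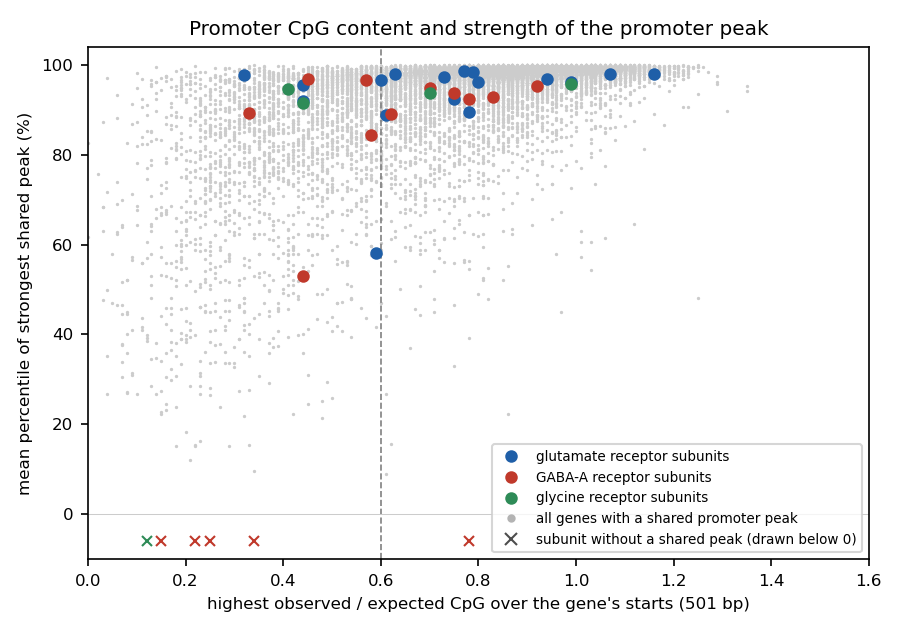
The horizontal axis is the highest observed over expected CpG of a gene's starts, and the vertical axis the mean percentile of its strongest shared promoter peak over both replicates. Coloured points are 32 receptor subunit genes with a shared peak, grey points other open genes, and crosses the 6 receptor genes without one. Most receptor genes left of the dashed line at 0.6 lie above 80, and Gabrr1 (53.1) and Grin3b (58.1) lie below.

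Other short motifs were sought as exact matches on both strands in the 150 bp of the strongest shared promoter peak. None of these strings contains another. The GC box GGGCGG was found in 16 of 36 receptor genes (44.4%), beside 54.0% of all open genes. Part of the CTCF motif, AGGGGGC, was found in 7 (19.4%), beside 11.9%. The E-box CAGCTG was found in 4 (11.1%), beside 8.99%, and CAGATG in 2 (5.56%), beside 5.0%. TATAAA was found in Glra2 (2.78%), beside 2.06%. The CRE TGACGTCA and the homeodomain core TAATTA were found in no receptor gene, beside 3.03% and 0.702% of all open genes. RE1 was found in none of the strongest peaks, beside 0.252%.

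Distal peaks were shared peaks centred in the gene body or within 50 kb of it and over 1000 bp from any protein-coding start. The receptor genes had a median of 10, and all genes 7. The receptor genes are long, with a median of 111.9 kb against 17.4 kb for all genes. Per 100 kb of window the median was 4.48 for receptor genes and 5.02 for all genes. In windows of 100 to 150 kb, 12 receptor genes had a median of 6.5, against 6 for all genes of that class. The medians were 6.5 against 9 at 150 to 200 kb (8 receptor genes), 9 against 14 at 200 to 300 kb (6 genes), 14 against 23 at 300 to 500 kb (7 genes) and 26 against 43 above that (9 genes). Above 150 kb the receptor genes thus had fewer distal peaks at the median than all genes of like window length.

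Glutamate receptor genes had a median of 6.11 distal peaks per 100 kb, GABA-A genes 2.62 and glycine receptor genes 5.16. The 60 voltage-gated channel pore genes had 6.86. Replicate 1 alone gave 24.1 per 100 kb for receptor genes and 17.5 for all genes, and replicate 2 alone gave 6.43 and 8.44, so the order of receptor genes and all genes was opposite in the replicates. The 6 X-linked receptor genes had a median of 1.44 shared distal peaks per 100 kb, beside 1.83 for all X-linked genes, and the 36 autosomal ones 4.61, beside 5.25 for autosomal genes. Pooled sexes carry fewer X copies than autosome copies, and the part of copy number was not tested.

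Among the kainate receptor genes, Grik4 had 59 distal shared peaks, Grik3 57, Grik1 30, Grik5 23 and Grik2 21. Grid1 had 53, Grin2b 39, Gria1 32 and Gabrb1 26. Per 100 kb, Grik3 was highest with 17.6, then Grin2c with 14.4 and Grik5 with 14.2. In Grik3 the body held 37 of 57 peaks, whereas in Grik5 it held 5 of 23 and in Grin2c 3 of 17. At the low end were Gabre with 0, and Gabra3, Gabrd and Glra2 with 1 each.

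**Figure D4:**
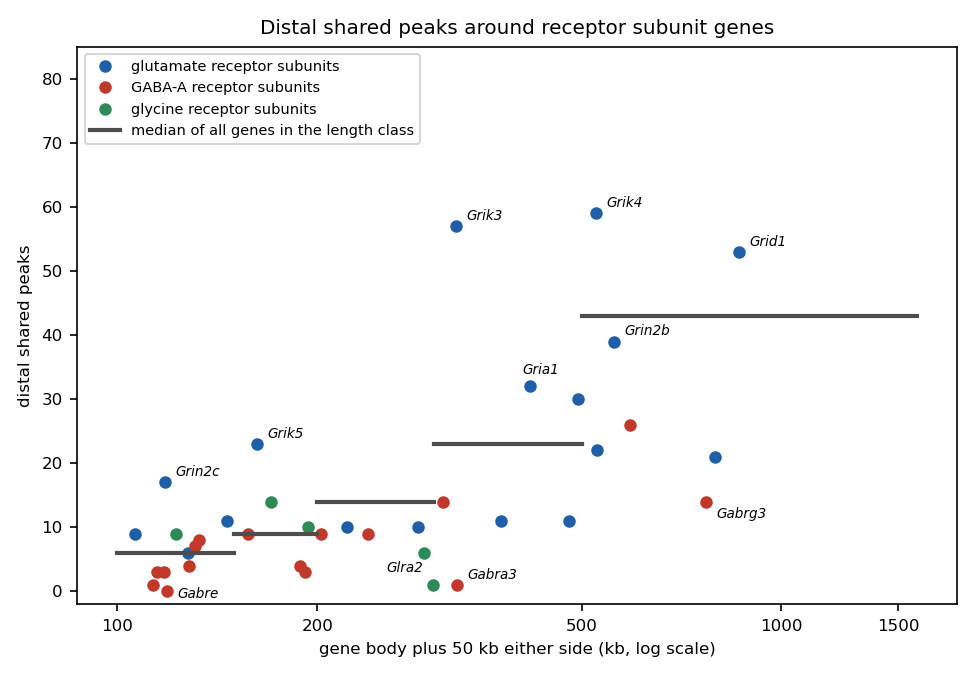
Points give the number of distal shared peaks of 38 receptor subunit genes against the length of their windows in kb (log scale), and dark lines the median of all genes in each length class. Grik3 (57) and Grik4 (59) lie above the lines of their classes (23 and 43), and Gabra3 (1), Glra2 (1) and Gabrg3 (14) below theirs.

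Together the 42 windows held 662 distinct distal shared peaks. Of these, 495 lay in the body of a receptor gene, 20 were counted for more than 1 receptor gene, and 59 of the flanking peaks lay within another gene. Their median values were 17 in replicate 1 and 57 in replicate 2, against 18 and 60 over the 140439 distal shared peaks of the genome. The strongest distal peaks of Grid1, Grin2c and Grik3 had the highest mean percentiles of the 42 genes, and their sequences on the strand of the receptor gene are shown as the most open distal sites.
Grid1: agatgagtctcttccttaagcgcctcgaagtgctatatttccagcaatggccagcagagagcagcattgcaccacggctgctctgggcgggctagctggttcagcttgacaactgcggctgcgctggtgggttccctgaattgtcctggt
Grin2c: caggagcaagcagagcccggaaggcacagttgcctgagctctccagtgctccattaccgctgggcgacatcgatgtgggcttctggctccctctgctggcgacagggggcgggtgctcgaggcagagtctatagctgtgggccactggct
Grik3: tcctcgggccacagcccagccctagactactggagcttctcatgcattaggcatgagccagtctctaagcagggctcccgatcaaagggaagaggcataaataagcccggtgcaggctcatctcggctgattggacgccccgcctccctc

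The Grid1 peak had 86 and 136 and lay 9.2 kb upstream of the gene in intergenic sequence (chr14:34810876-34811025). The Grin2c peak had 82 and 132 and lay in an intron of Tmem104, beyond the 3′ end of Grin2c (chr11:115202456-115202605). The Grik3 peak had 80 and 131 and lay in a Grik3 intron 205.7 kb from the 5′ end (chr4:125696276-125696425). The next were an intronic peak of Gabrb1 with 82 and 130 (chr5:71976656-71976805) and a peak flanking Grin2d, within an intron of Lmtk3, with 89 and 128 (chr7:45801436-45801585). Whether these peaks act on the receptor genes cannot be read from DNase-seq. RE1 matches fell under 3 distal peaks, 2 in introns of Grik3 (13 and 53, 22 and 70) and 1 in an intron of Grid1 (19 and 50).

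Most GABA-A genes stand in clusters, and their windows overlap, so peaks were also counted once per cluster, with 50 kb on either side included. The chromosome 5 cluster of Gabrg1, Gabra2, Gabra4 and Gabrb1 (1398 kb) had 61 distal shared peaks, or 4.07 per 100 kb. The X-linked group of Gabre, Gabra3 and Gabrq had 5, or 0.73 per 100 kb. Both groups were below the genome as a whole, which had 5.15, whereas the pair of Gabrr2 and Gabrr1 on chromosome 4 had 5.98, in a window with 4 other coding genes. For the X-linked group the nearer comparison is the median of 1.83 over the windows of all X-linked genes, itself below the genome value.

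**Figure D5:**
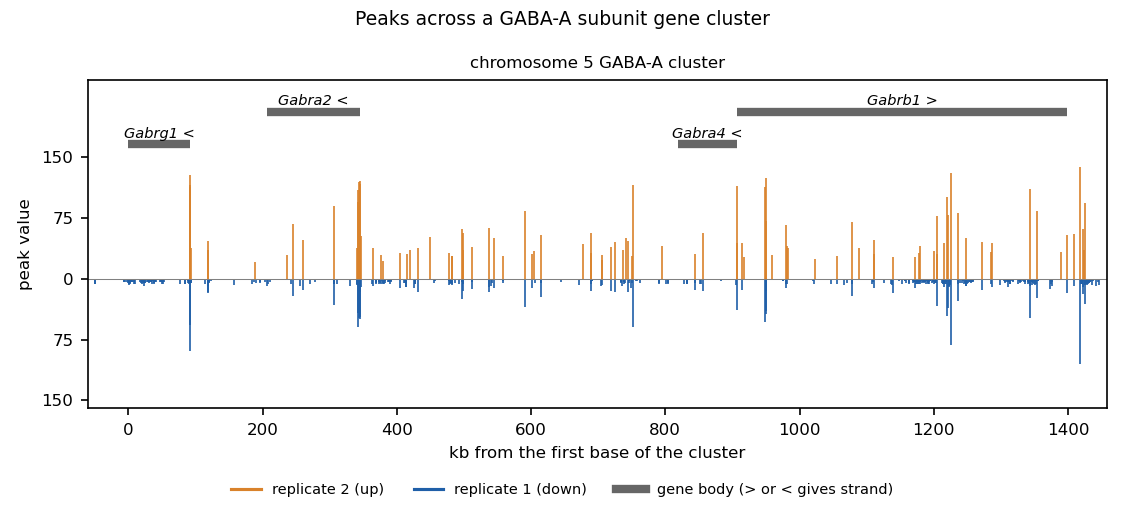
Vertical lines give the authors' value of each peak along the chromosome 5 GABA-A cluster, replicate 2 upward and replicate 1 downward, by distance in kb from the first base of the cluster. Grey bars are gene bodies. Tall lines stand at the starts of Gabrg1, Gabra2, Gabra4 and Gabrb1, and also in an intron of Gabrb1 (82 and 130). The tallest line past the 3′ end of Gabrb1 (105 and 138) was not counted as distal, as it lay within 1000 bp of a coding start. The window also holds the coding genes Commd8 and Cox7b2.

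Genes that work with the receptors were open throughout. The 34 auxiliary and scaffold genes were all open, beside 69.0% of all genes, with median values of 76.5 and 131.5. Among them were the TARPs Cacng2, Cacng3, Cacng4, Cacng5, Cacng7 and Cacng8, Neto1, Neto2, gephyrin (Gphn), Dlg4 and the Shank genes. All 10 metabotropic receptors for glutamate and GABA, among them Gabbr1 and Gabbr2, were open, with medians of 62.5 and 121.5. Of the voltage-gated channel genes 55 of 60 (91.7%) were open. At 85.7%, the receptor subunit genes stood below these lists and above all genes, and the difference was not tested.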

How the data were processed

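DNase-seq of 2 replicates of 1 group was used. Peaks were deposited per replicate on mm10, per the labels. Their signal values are the authors' whole numbers of 1 to 150, and their p and q columns hold no values. For hotspots the authors deposited a −log10 q value, and only positions were used. The aligner, the caller and the read depth were not given in the sources used here. Values were ranked within a replicate. Genes and starts came from GENCODE M21 and sequence from GRCm38.p6, and coordinates are 1-based. Shared peaks are described by their replicate 2 interval, with the strongest overlapping replicate 1 value. Scripts ran in Python 3.11.15 with pysam 0.24.0, scipy 1.17.1, pandas 2.3.3 and numpy 2.4.6, and were tested on simulated data. The members, lists and motifs were chosen with earlier results of these data known. The rule allowed each member to be named, with full values for the 10 highest and the lowest promoter peaks, members without a shared peak, the early and late lists and the 10 members with most distal peaks. The motifs at 300 bp and other windows, overlaps and thresholds were tried. Other mismatch limits for RE1 were added after the data were seen. The results of 4 members are not reported here, although counts over the 42 genes include them, and the early and late lists were counted without them.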

Additional observations from a re-analysis of the deposited data

How the results depend on the processing

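The count of 36 open receptor genes ranged from 33 (the gene's 5′ end alone) to 38 (without replicate 1 and without replicate 2), and the share of all genes from 64.4% to 75.8%. Grin3b and Gabrr1 were lost when peaks below their replicate's median were dropped, and Gabrd was gained with hotspots. The median of 10 distal shared peaks per receptor gene was 5 in gene bodies alone (all genes 1) and 6.5 with peaks at or above the replicate median (all genes 4). Leaving out a replicate gave 14.5 without replicate 1 and 61 without replicate 2. Those counts are of unshared peaks, by construction. RE1 matches stood at 7 receptor genes with up to 2 mismatches (0.479% of all genes) and at 9 with up to 4 (21.4%, beside 6.41%). With 300 bp in place of 150 bp, the CTCF string was found in 11 of 36 receptor genes (30.6%, beside 18.5% of all open genes) and RE1 in 1 (Gria2), beside 0.384%. No paired analysis was possible because there was 1 group. With 2 replicates and unknown depth, an absent peak shows no more than that none was called.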

Other observations

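The adjacent genes Gria2 and Glrb on chromosome 3, with their flanks, held 53.3 replicate 1 peaks per 100 kb and 9.33 replicate 2 peaks, which gave 5.42 distal shared peaks per 100 kb. The chromosome 5 GABA-A cluster held 34.9 and 6.61. RE1 matches within 1000 bp of a start were found at 4 of 60 voltage-gated channel genes (6.67%: Cacna1b, Cacna1d, Kcnh4 and Scn2a) and at 3 of 34 auxiliary and scaffold genes (8.82%: Shisa7, Dlg4 and Shank1). In the 662 distal shared peaks of receptor genes, the E-box CAGCTG was found in 16.9% and CAGATG in 16.6%, beside 15.2% and 15.4% of all distal shared peaks. TAATTA was found in 6.5%, beside 5.75%.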
